A study of Mus musculus with 14 samples.

Results

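This report describes Gnb4, a beta subunit of heterotrimeric G proteins, beside 9 other subunits of the same family, in CD11b+ microglia/macrophages of injured mouse brains. The 10 genes are the beta subunits Gnb4, Gnb1, Gnb2 and Gnb5, the gamma subunits Gng2, Gng5, Gng10 and Gng12, and the alpha subunits Gnai2 and Gnai3, out of 33939 genes measured. They were chosen from a list of symbols, and Gnb4 heads that list because its CPM (reads per 1000000 reads assigned to genes) differed between the genotypes in these same libraries. The genotype difference of Gnb4 is therefore given as a description, without a test.

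The libraries came from C57BL/6 mice aged 8 to 12 weeks, 3 days after traumatic brain injury (TBI) by controlled cortical impact on one hemisphere. Ctrl mice were tamoxifen-injected Cx3cr1-CreER+/- animals, and cKO mice were tamoxifen-injected Cx3cr1-CreER+/- animals that also carried 2 floxed copies of the gene to be deleted, so that both genotypes carried 1 copy of the Cre allele in Cx3cr1 and both received tamoxifen. Cre in these animals is driven by Cx3cr1, which is active in microglia and in other Cx3cr1-expressing myeloid cells. Cells were sorted by magnetic beads from the hemisphere opposite the impact (contralateral, CL) and from the impacted hemisphere (ipsilateral, IL). Of 8 mice, 6 gave both hemispheres, which made 4 Ctrl libraries and 3 cKO libraries of each hemisphere, and a library is named here by its group and its mouse number. Reads assigned to genes ranged from 12.2 M to 41.6 M per library, where M stands for 1000000.

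A heterotrimeric G protein consists of an alpha subunit, which binds and hydrolyses GTP, and a beta and a gamma subunit, which act as one unit. A ligand-bound G-protein-coupled receptor makes the alpha subunit exchange GDP for GTP, after which alpha and beta-gamma act on separate effectors such as adenylyl cyclases, phospholipases and phosphoinositide 3-kinases. Microglia use Gi-coupled receptors, among them P2ry12 and Cx3cr1, to sense nucleotides and fractalkine.

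The beta subunits are close relatives, and a gene-level difference in one of them can be read only where its sequence is separable from the others. In the GENCODE M21 annotation (GRCm38), Gnb4 (ENSMUSG00000027669) lies on the minus strand of chromosome 3 at 32580332 to 32616585. The coding sequences of Gnb4, Gnb1 and Gnb2 are each 1020 bases long, and that of Gnb5 is 1185 bases long. Gnb4 was identical to Gnb1 at 77.0% of aligned coding bases, to Gnb2 at 75.6%, to Gnb3 at 72.8% and to Gnb5 at 60.3%. The longest stretch without a difference between Gnb4 and another beta subunit was 27 bases, with Gnb1. The 90-base window below is the one inside a single Gnb4 exon where Gnb4 and Gnb1 are most alike, and it is shown because it is the hardest place to tell the genes apart. It lies in exon 9 of Gnb4 at chr3:32587672-32587761, minus strand, and the aligned stretches are in exon 10 of Gnb1 at chr4:155555031-155555120, plus strand, in exon 9 of Gnb2 at chr5:137528802-137528891, minus strand, and across exons 10 and 11 of Gnb5 at chr9:75340205-75343565, plus strand. Capitals mark the bases that differ from Gnb4.
Gnb4: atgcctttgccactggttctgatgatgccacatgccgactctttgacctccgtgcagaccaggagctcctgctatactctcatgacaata
Gnb1: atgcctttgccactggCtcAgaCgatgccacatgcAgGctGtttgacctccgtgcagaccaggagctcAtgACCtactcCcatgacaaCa
Gnb2: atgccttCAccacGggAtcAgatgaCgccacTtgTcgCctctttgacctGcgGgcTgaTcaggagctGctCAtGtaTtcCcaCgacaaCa
Gnb5: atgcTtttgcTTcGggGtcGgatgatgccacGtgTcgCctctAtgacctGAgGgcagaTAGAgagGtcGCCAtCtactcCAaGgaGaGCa
Over these 90 bases Gnb1 differed from Gnb4 at 12 positions, Gnb2 at 21 and Gnb5 at 29. In a search of all annotated transcripts, no gene other than Gnb4 itself matched a Gnb4 transcript over at least 75 bases at 90% identity or more. That search started only from exact matches of 28 bases. The longest coding run shared with another beta subunit was 27 bases, so the search could not find their coding sequences.

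Gnb4 was low in every Ctrl library and higher in every cKO library. In Ctrl CL it measured 3.10 CPM in mouse 3541, 2.63 in 3545, 1.27 in 3546 and 1.12 in 3551. In Ctrl IL it measured 1.96 CPM in mouse 3541, 1.93 in 3545, 2.21 in 3546 and 2.60 in 3551. These levels rest on few reads, 129 in the Ctrl CL library with the most and 18 in the one with the fewest.

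In cKO CL, Gnb4 measured 18.6 CPM in mouse 788, 29.4 in 791 and 44.7 in 3592. In cKO IL it measured 19.4 CPM in mouse 784, 21.2 in 791 and 21.2 in 3592. The lowest cKO library thus stood above the highest Ctrl library, and the values per cKO library came from 637 to 1154 reads. The group means were 2.03 ± 0.986 CPM (SD, n = 4) in Ctrl CL, 2.18 ± 0.309 (n = 4) in Ctrl IL, 30.9 ± 13.1 (n = 3) in cKO CL and 20.6 ± 1.07 (n = 3) in cKO IL. On the log2(CPM + 1) scale, which understates the change of a gene this low in Ctrl, cKO exceeded Ctrl by 2.79 (SE 0.15) in IL and by 3.39 (SE 0.35) in CL. In CPM the SD was largest in cKO CL, while the ratio of the highest to the lowest library was larger in Ctrl CL.

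**Figure D1:**
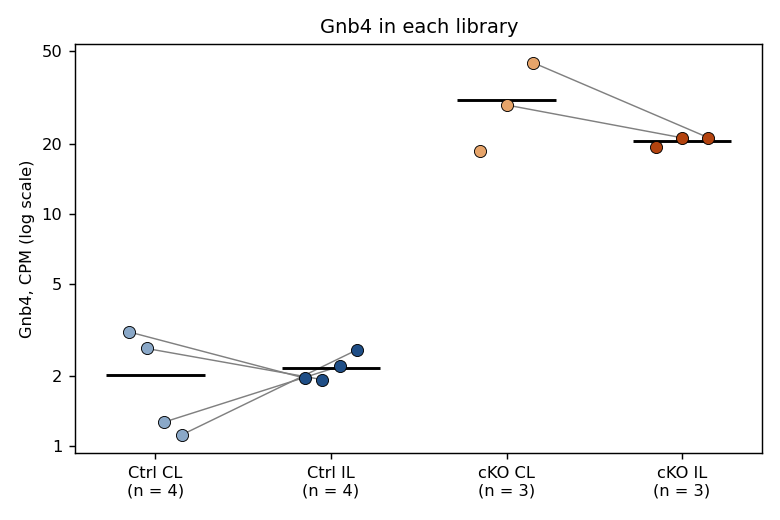
Gnb4 in CPM (log axis) in each of the 14 libraries by group; points are libraries, black bars are group means and grey lines join both hemispheres of 1 mouse. The Ctrl libraries lie between 1.12 and 3.10 CPM and the cKO libraries between 18.6 and 44.7 CPM.

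The other subunits showed no difference of this size. A gene was called where limma gave an adjusted p of at most 0.05 and a fold change of at least 1.2. In IL, 1 of the 10 subunits was called higher in cKO and 0 lower, where 0.373% of the 16873 genes tested were called higher and 0.296% lower. In CL, 1 of 10 was called higher and 0 lower, where 0.537% of the 16570 genes tested were called higher and 0.368% lower. The 1 gene in both is Gnb4, whose call the choice of the list fixed.

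Among the other beta subunits, Gnb1 and Gnb2 are the common beta partners of most G proteins, and neither was called between genotypes. Gnb1 measured 451 to 537 CPM in Ctrl CL, 425 to 493 in cKO CL, 546 to 601 in Ctrl IL and 520 to 574 in cKO IL, and its genotypes overlapped in both hemispheres. Gnb2 measured 154 to 220 CPM in Ctrl CL and 165 to 201 in cKO CL. In IL, Gnb2 measured 194 to 217 CPM in Ctrl and 180 to 185 in cKO, without overlap. Gnb5, which pairs with a subfamily of RGS proteins instead of a classical gamma subunit, measured 6.47 to 9.33 CPM in Ctrl CL and 5.79 to 6.35 in cKO CL, without overlap, and 5.46 to 7.53 in Ctrl IL and 5.004 to 5.88 in cKO IL. As a fold of cKO over Ctrl on the log2(CPM + 1) scale, Gnb1 stood at 0.963 (95% interval 0.759 to 1.22) in CL and 0.952 (0.767 to 1.18) in IL. Gnb2 stood at 0.942 (0.714 to 1.24) in CL and 0.898 (0.725 to 1.11) in IL, and Gnb5 at 0.790 (0.572 to 1.09) in CL and 0.869 (0.660 to 1.14) in IL. All 6 of these intervals include no change, and none reaches a 2-fold difference.

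The alpha subunits Gnai2 and Gnai3, which inhibit adenylyl cyclase, had folds of 1.02 and 0.910 in CL and of 0.993 and 0.914 in IL. The Gnai3 libraries did not overlap in CL, with 117 to 138 CPM in Ctrl and 107 to 111 in cKO. Of the gamma subunits, which anchor the beta-gamma unit to the membrane by a lipid, Gng2, Gng5, Gng10 and Gng12 had folds of 0.895, 0.902, 0.801 and 1.02 in CL and of 0.817, 1.39, 0.831 and 0.951 in IL. The Gng2 interval in IL, 0.677 to 0.986, lay under 1. With mouse as a random block, no gamma subunit had an unadjusted limma p under 0.05 in that comparison. The Gng5 interval in IL, 0.473 to 4.10, was too wide to say whether this subunit changed, and the 4 Ctrl IL libraries behind it ranged from 21.8 to 163 CPM. Of the 9 subunits other than Gnb4, 1 stood without overlap between the genotypes in IL (Gnb2) and 2 in CL (Gnb5 and Gnai3). Of all genes tested, 10.3% and 10% did so. Gnb4 also did not overlap in either hemisphere, which the choice of the list fixed.

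**Figure D2:**
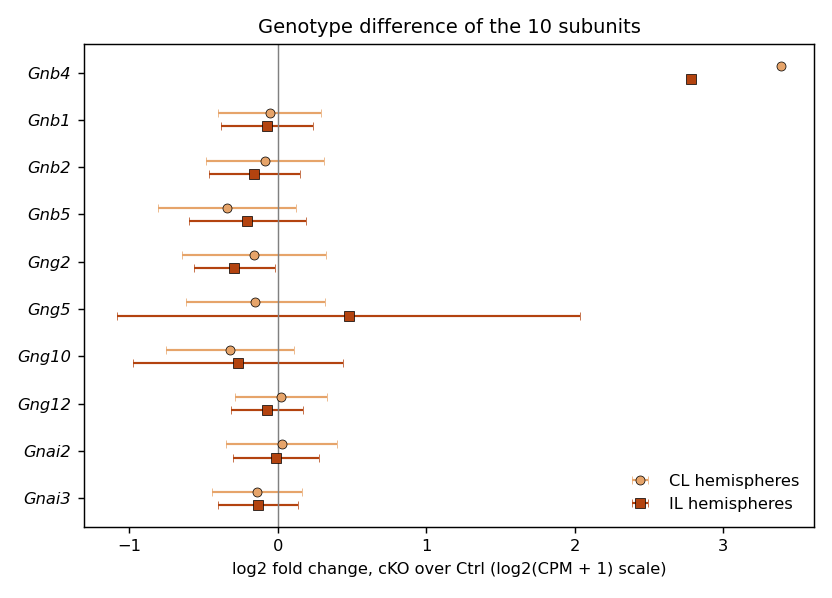
log2 fold change of cKO over Ctrl on the log2(CPM + 1) scale for the 10 subunits, in CL (circles) and IL (squares); bars are 95% intervals, drawn for the 9 subunits other than Gnb4. Gnb4 stands at 3.39 and 2.79, and the points of the other 9 lie between -0.34 and 0.48.

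Levels of different genes were compared after division by gene length, as CPM per kb of exon. By this measure Gnb4 was the lowest of the 10 subunits in both Ctrl groups, with 0.160 ± 0.0777 CPM per kb in Ctrl CL and 0.172 ± 0.0244 in Ctrl IL (SD, n = 4 each). Gnb5, the next lowest, measured 2.62 ± 0.387 and 2.08 ± 0.301 CPM per kb there, and no Ctrl library of Gnb4 reached the lowest of Gnb5. In cKO, Gnb4 measured 2.43 ± 1.03 CPM per kb in CL and 1.62 ± 0.0846 in IL (n = 3 each), and Gnb5 measured 1.94 ± 0.0931 and 1.73 ± 0.143. The per-length levels of Gnb4 and Gnb5 overlapped in both cKO groups, so their order there is not settled.

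Gnb1 and Gnb2 carried most of the beta-subunit transcripts in every group. Gnb1 measured 113 CPM per kb in Ctrl CL, 135 in Ctrl IL, 106 in cKO CL and 127 in cKO IL, and Gnb2 measured 57.5, 60.6, 52.4 and 53.6 in the same order. Gnb4 made up 0.0903% ± 0.0378 of the summed per-length level of the 5 beta subunits in Ctrl CL, 0.0869% ± 0.0148 in Ctrl IL, 1.48% ± 0.586 in cKO CL and 0.883% ± 0.0486 in cKO IL. The sum of the other 4 beta subunits was 173 ± 17.0 CPM per kb in Ctrl CL, 198 ± 8.60 in Ctrl IL, 160 ± 7.77 in cKO CL and 182 ± 7.34 in cKO IL. The share depends on the length used, since the joined exons of Gnb4 span 12692 bases and its longest transcript 5997. With the longest transcript of each gene the share was 2.06% in cKO CL and 1.24% in cKO IL, and Gnb4 then lay above Gnb5 in the mean of both cKO groups.

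**Figure D3:**
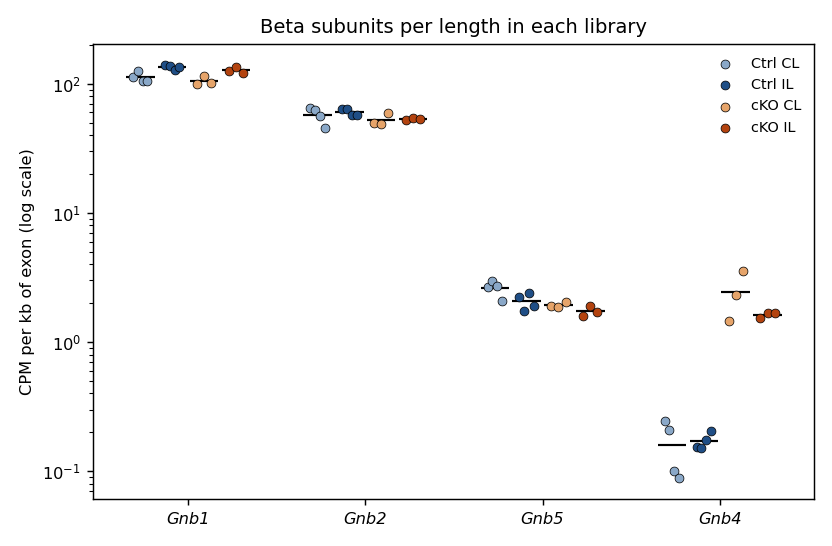
CPM per kb of exon (log axis) of 4 beta subunits in each library; points are libraries coloured by group and black bars are group means. Gnb1 lies near 100 in all groups, while Gnb4 lies near 0.16 in Ctrl and reaches the level of Gnb5 in cKO.

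Among all 10 subunits, Gnai2 had the highest per-length level in each group, from 216 CPM per kb in cKO CL to 259 in Ctrl IL. Gng10 (192 in Ctrl CL, 119 in cKO IL) and Gnb1 came next, and their order depended on the group and, in Ctrl IL, on the length used (151 and 135 CPM per kb of joined exons, 167 and 184 per kb of the longest transcript). Gng5 and Gnai3 lay close together, at 35.3 and 37.8 CPM per kb in Ctrl CL and at 46.8 and 38.2 in cKO IL. Gng2 and Gng12 were near each other in CL (18.1 and 15.6 in Ctrl, 15.6 and 15.4 in cKO) and apart in IL (10.6 and 23.2 in Ctrl, 8.45 and 21.7 in cKO). Some subunits share sequence with other annotated genes, which can move reads between them. Gng5 matched 7 other genes over at least 75 bases at 90% identity or more, Gng2 matched 2, and Gnb1, Gnb2, Gnb5 and Gng10 each matched 1, the longest match being 958 bases at 99.8% identity between Gng10 and Gm20503, which was not analysed here. Gng12 and Gnai3 matched no other gene, and the Gnai2 transcripts share a short stretch with 1076 genes.

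The IL libraries of each genotype were compared with its CL libraries, which is not the contrast that Gnb4 was chosen on. Both hemispheres came from injured mice, and no library came from an uninjured mouse. A gene said to rise or fall in IL therefore differed between the sides, and change over time was not measured. In Ctrl mice, 1 of the 10 subunits was called higher in IL and 0 lower, where 4.18% of 16376 genes were called higher and 3.33% lower. In cKO mice, 2 of 10 were called higher and 1 lower, where 12.3% of 16758 genes were called higher and 10.8% lower. With mouse as a block, 2 were called higher and 1 lower in Ctrl (10.2% and 10.3% of all genes) and 2 higher and 2 lower in cKO (10.4% and 7.46%), the last from only 2 mice with both hemispheres. The subunits' counts differ from these backgrounds by no more than 1 or 2 genes.

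Gng12 rose in IL in both genotypes. It measured 70.2, 65.8, 73.2 and 85.9 CPM in Ctrl CL and 110, 100.1, 108 and 120.0 CPM in Ctrl IL, in the order of mice 3541, 3545, 3546 and 3551. In cKO it measured 69.2, 82.4 and 67.2 CPM in CL (mice 788, 791 and 3592) and 101, 95.4 and 111 CPM in IL (mice 784, 791 and 3592). Every IL library stood above every CL library in both genotypes. The log2 difference was 0.65 (SE 0.12, limma adjusted p = 0.0102) in Ctrl and 0.56 (SE 0.10, adjusted p = 0.00830) in cKO. Without Ctrl IL of mouse 3541, the Ctrl difference was 0.58 with an adjusted p of 0.0576.

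Gng2, a gamma subunit commonly paired with Gnb1, was lower in IL within each of the 6 mice. It measured 51.5, 76.4, 103 and 86.2 CPM in Ctrl CL and 38.1, 46.05, 54.8 and 46.3 CPM in Ctrl IL (mice 3541, 3545, 3546 and 3551). In cKO it measured 56.7, 58.8 and 89.96 CPM in CL (mice 788, 791 and 3592) and 36.5, 32.4 and 42.3 CPM in IL (mice 784, 791 and 3592). The groups overlapped in Ctrl, where mice differed widely, and did not overlap in cKO. Gng2 fell in cKO (log2 difference -0.78, SE 0.16, limma adjusted p = 0.0136), a call lost without cKO IL of mouse 784 (adjusted p = 0.0511) or of mouse 791 (0.0582). In Ctrl the log2 difference was -0.65 (SE 0.18, adjusted p = 0.0624), and it passed with mouse as a block (adjusted p = 0.00959) or without Ctrl CL of mouse 3541 (-0.81, adjusted p = 0.0160).

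Gng5 rose in IL in cKO, and its Ctrl values turned on 1 library. In cKO it measured 78.1, 91.2 and 82.9 CPM in CL (mice 788, 791 and 3592) and 126, 121 and 140.2 CPM in IL (mice 784, 791 and 3592), with a log2 difference of 0.68 (SE 0.09, limma adjusted p = 0.00288). In a fit of all 14 libraries the adjusted p was 0.532. In Ctrl it measured 115, 103, 66.8 and 106 CPM in CL and 155, 163, 21.8 and 136 CPM in IL (mice 3541, 3545, 3546 and 3551). The IL library of mouse 3546 lay under every other library while the other 3 Ctrl IL libraries lay above every Ctrl CL library. The log2 difference in Ctrl was 0.06 (SE 0.60, adjusted p = 0.978) with that library and 0.78 (adjusted p = 0.0532) without it.

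The Ctrl IL library of mouse 3546 had the fewest reads, 12.2 M, and the lowest level of several gamma subunits. In it, among genes over 5 CPM on average, those whose longest transcript is under 1 kb stood at a median of -1.54 on the log2 scale against the other libraries of its group, and those over 5 kb at 0.57. The CL library of the same mouse, with 28.3 M reads, shifted the same way (-0.45 and 0.45). Gng10 (111 CPM against 201 to 245 in the other Ctrl IL libraries), Gngt2 (19.6 against 107 to 131) and Gng11 (0.736 against 3.25 to 5.21) were also lowest in Ctrl IL of mouse 3546. Only Gng11 has a longest transcript under 1 kb (919 bases), against 1192 bases in Gng10, 1587 in Gngt2 and 2419 in Gng5. The part of transcript length in the Gng5 values was not tested.

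Gnb1 was higher in IL within each of the 6 mice, by a ratio of 1.09 to 1.27 in Ctrl and of 1.16 to 1.198 in cKO. Its log2 difference in Ctrl was 0.35 (SE 0.15, limma adjusted p = 0.193) and passed with mouse as a block (SE 0.08, adjusted p = 0.0230). In cKO it was 0.33 (SE 0.12, adjusted p = 0.0722). Gnai2 gave 0.34 (SE 0.15, adjusted p = 0.218) in Ctrl and 0.30 (SE 0.12, adjusted p = 0.106) in cKO, and its IL level exceeded its CL level in each of the 6 mice, by a ratio of 1.02 to 1.43. Gnai3 (0.25 and 0.25), Gnb2 (0.17 and 0.10), Gnb5 (-0.22 and -0.08) and Gng10 (-0.30 and -0.25) were not called in Ctrl or in cKO. Without overlap between hemispheres stood 2 of 10 subunits in Ctrl, Gng12 and Gnb1 (17.7% of all genes), and 6 in cKO, Gng12, Gng5, Gnb1, Gnai2, Gnai3 and Gng2 (42.4% of all genes).

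Gnb4 itself did not show 1 direction between hemispheres in Ctrl, where its IL to CL ratio was 0.633 and 0.735 in 2 mice and 1.74 and 2.32 in the other 2. The log2 difference was 0.17 (SE 0.25, limma adjusted p = 0.781). In cKO, both mice with both hemispheres had less Gnb4 in IL, at ratios of 0.723 (mouse 791) and 0.475 (mouse 3592). The log2 difference over all 6 cKO libraries was -0.42 (SE 0.26, adjusted p = 0.277). With mouse as a block it was -0.67 (adjusted p = 0.0334), and without cKO CL of mouse 788 it was -0.70 (adjusted p = 0.0415). The genotype difference of Gnb4 in IL minus that in CL was -0.59 on the log2 scale (SE 0.41), given as a description. When limma tested whether genotype differences depend on hemisphere, 0 of 18476 genes were called (0%) and 477 had an unadjusted p under 0.05. With mouse as a random block 4 were called, none of them among the 10 subunits.

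**Figure D4:**
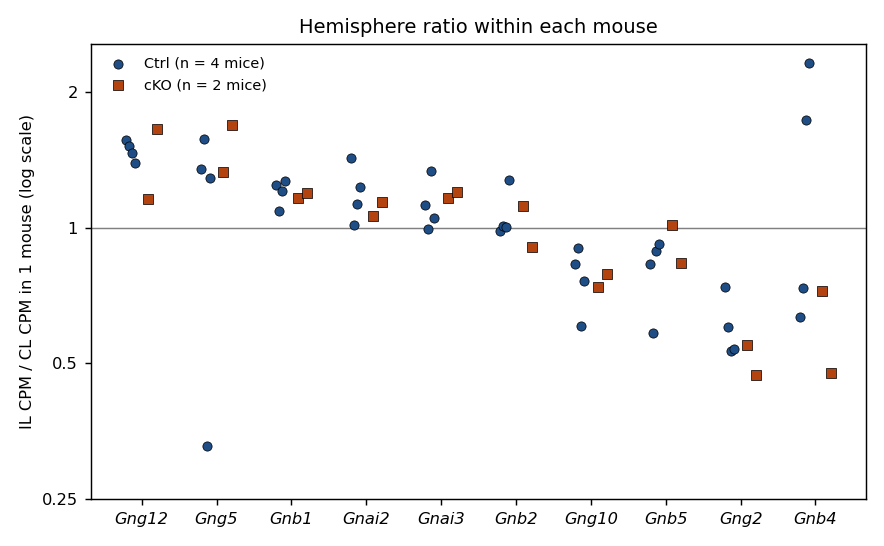
IL CPM over CL CPM within each mouse (log axis) for the 10 subunits, in 4 Ctrl and 2 cKO mice; the grey line marks equal levels. All 6 mice lie above 1 for Gng12, Gnb1 and Gnai2 and under 1 for Gng10 and Gng2, and the low Ctrl point of Gng5, 0.327, is mouse 3546.

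Levels of cell type markers were read beside these differences, and the microglia sums were lower in IL without overlap. The summed level of 7 microglia markers was 32129 to 36260 CPM in Ctrl CL and 32059 to 34763 in cKO CL, against 17982 to 22027 in Ctrl IL and 18965 to 20863 in cKO IL, and 0 of the 7 was at 0 in any group. The summed level of 6 monocyte markers was 231 to 757 CPM in Ctrl CL, 379 to 608 in Ctrl IL, 136 to 344 in cKO CL and 310 to 481 in cKO IL. The summed level of 7 neutrophil markers was 483 to 5991 CPM in Ctrl CL, 140 to 815 in Ctrl IL, 488 to 1347 in cKO CL and 208 to 334 in cKO IL. The summed level of 5 astrocyte markers was 26.4 to 35.2 CPM in Ctrl CL, 41.4 to 79.5 in Ctrl IL, 22.03 to 53.6 in cKO CL and 47.1 to 96.1 in cKO IL. Of these only Gfap was called between hemispheres, higher in IL in both genotypes (log2 difference 1.86 and 1.93). Slc1a2 had lower means in IL (3.27 CPM in Ctrl CL and 2.22 in Ctrl IL, 2.92 and 2.17 in cKO). The means of Aqp4, Aldh1l1 and Gja1 were higher in IL in both genotypes. In Ctrl, sums of 6 T and NK cell markers (8.28 to 17.4 CPM in CL and 3.76 to 5.18 in IL) and of 4 platelet markers (23.5 to 28.5 and 6.30 to 15.9) also did not overlap, and in cKO only the platelet sums of these 2 did not (16.1 to 26.3 and 9.08 to 14.1). The T and NK cell sums were mostly Nkg7, Gzma and Klrb1c, while Cd3e, Cd3d and Cd3g each stayed under 1 CPM. By mean CPM the platelet sums were mostly Gp9, while Ppbp was called higher in Ctrl IL (log2 difference 1.72, limma adjusted p = 0.0318). Sums of 4 B cell markers, mostly Cd79b, also did not overlap between CL and IL. They were 28.9 to 43.4 and 19.9 to 28.1 CPM in Ctrl and 24.7 to 25.7 and 16.1 to 21.1 in cKO. In bulk libraries such as these, fewer cells of a type and less RNA per cell cannot be told apart, and the part of these cells in the hemisphere differences of the subunits was not tested. Between genotypes, the microglia sums overlapped in both hemispheres. In CL the summed level of 5 oligodendrocyte markers did not overlap (126 to 193 CPM in Ctrl and 80.8 to 113 in cKO). The B cell sums in CL did not either (28.9 to 43.4 in Ctrl and 24.7 to 25.7 in cKO). The median log2 difference of cKO against Ctrl in CL was -0.98 for border-associated macrophage markers, -1.16 for neutrophil and -0.71 for monocyte markers. It was -0.96 for oligodendrocyte, -0.78 for T and NK cell and -0.45 for endothelial markers, beside -0.02 over all genes. In IL the medians were -0.15, -0.11, 0.19, 0.09, 0.17 and 0.11 in that order, beside 0.02 over all genes. The part of these cells in the genotype values was not tested. Between genotypes, Mobp, an oligodendrocyte gene, was the only listed marker called (lower in cKO CL, log2 difference -1.66, adjusted p = 0.0466).

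The rest of the family was read from a list of 33 subunits, of which 32 were in the table. Between genotypes, 0 of the subunits other than Gnb4 were called by limma, of 25 tested in IL and 23 in CL, where under 1% of all genes were called (0.373% higher and 0.296% lower in IL, 0.537% and 0.368% in CL). An unadjusted p under 0.05 was given to 1 of them in IL and 4 in CL, and 0 were called with mouse as a random block. The median log2 difference of all tested subunits was -0.02 in IL and -0.06 in CL, beside 0.02 and -0.02 over all genes. Between hemispheres, the alpha subunits Gna11 and Gna15, which activate phospholipase C, fell in IL. Gna11 measured 28.4 to 35.0 CPM in Ctrl CL and 17.0 to 23.6 in Ctrl IL (log2 difference -0.61, limma adjusted p = 0.0459), and 26.5 to 29.5 in cKO CL and 14.7 to 17.6 in cKO IL (-0.69, adjusted p = 0.00562). Gna15 measured 293 to 425 CPM in Ctrl CL and 188 to 225 in Ctrl IL (-0.75, adjusted p = 0.0184), and 278 to 399 in cKO CL and 188 to 219 in cKO IL (-0.73, adjusted p = 0.0123). No Ctrl or cKO library of either gene overlapped between hemispheres, but the Ctrl calls of Gna11 and Gna15 were lost on leaving out 7 and 4 of the 8 Ctrl libraries, one at a time, and both were lost with no filter on low values (adjusted p = 0.114 and 0.0878). Over all 8 of these fits the log2 difference was -0.68 to -0.53 for Gna11 and -0.90 to -0.69 for Gna15. In cKO, the call of Gna15 was lost without IL of mouse 791 (adjusted p = 0.0505). In cKO, Gng11 (log2 difference 1.34, adjusted p = 0.00714) and Gngt2 (0.34, adjusted p = 0.0264) also rose in IL and Gng7 (-0.93, adjusted p = 0.00947) fell. Gngt2 lost its call with mouse as a block (adjusted p = 0.161) and on leaving out 4 of the 6 libraries, and Gng11 and Gngt2 lost theirs in a fit of all 14 libraries (adjusted p = 0.0712 and 0.756).

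Genes that act with the subunits were read from lists of known roles. Of 31 G-protein-coupled receptors of microglia and macrophages, S1pr1, a receptor of sphingosine-1-phosphate, was the only one called between genotypes. It measured 124 to 155 CPM in Ctrl CL and 43.3 to 54.1 in cKO CL (log2 difference -1.44, SE 0.15, limma adjusted p = 0.00114), and 150.3 to 165 in Ctrl IL and 86.9 to 115 in cKO IL. With mouse as a random block, S1pr1 was also called in IL (log2 difference -0.63, adjusted p = 0.0376), and C5ar1 was the second receptor called in CL. None was called by limma between genotypes among the genes tested of the other lists, which were 17 of 18 chaperones and exchange factors of G proteins, 15 of 21 regulators of G-protein signalling, 25 in IL and 24 in CL of 27 effectors, and 7 of 7 receptor kinases and arrestins. In that order, 0, 2, 1 and 1 of them had an unadjusted p under 0.05 in IL and 1, 2, 2 and 0 in CL, and 0 were called with mouse as a random block. At the shares of all genes called, 0.373% higher and 0.296% lower in IL and 0.537% and 0.368% in CL, lists of this size would hold few or no calls.

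Between hemispheres the receptors moved in both directions, 7 of 31 rising and 8 falling in Ctrl and 7 rising and 10 falling in cKO, with a median log2 difference of -0.06 and -0.16 beside -0.03 and 0.01 over all genes. Of all genes, 4.18% were called higher and 3.33% lower in Ctrl, and 12.3% and 10.8% in cKO. With mouse as a block, 9 receptors rose and 11 fell in Ctrl (10.2% and 10.3% of all genes) and 11 rose and 11 fell in cKO (10.4% and 7.46%). The prostaglandin E2 receptor Ptger2 (log2 difference 1.91 in Ctrl and 1.40 in cKO) and the chemokine receptor Cxcr4 (1.86 and 1.99) rose in both. The nucleotide receptors P2ry12 (-1.36 and -1.38) and P2ry13 (-1.48 and -1.36) fell in both. C5ar1, a complement receptor, also rose in both (0.76 and 1.47), and Ccr2, a chemokine receptor of monocytes, rose in Ctrl (1.11) and gave 0.73 in cKO (adjusted p = 0.260), where it passed with mouse as a block (0.75, adjusted p = 0.0155). In Ctrl, Cxcr4 lost its call without Ctrl IL of mouse 3545 (adjusted p = 0.0504) and C5ar1 on leaving out 5 of the 8 libraries, and both lost it with no filter on low values (adjusted p = 0.0632 and 0.115). P2ry12 and Ccr2 are also among the microglia and monocyte markers.

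Of 13 regulators of G-protein signalling tested in Ctrl, 2 fell in IL and 0 rose, Rgs2 (log2 difference -0.99, limma adjusted p = 0.00977) and Rgs3 (-0.88, adjusted p = 0.0126), both of which speed GTP hydrolysis by alpha subunits, where 3.33% of all genes were called lower. With mouse as a block, 5 fell and 0 rose, where 10.3% of all genes were called lower. Rgs2 in Ctrl lost its call with no filter on low values (adjusted p = 0.0671). In cKO, of 15 tested, Rgs2 (-1.29), Rgs3 (-0.99) and Rgs10 (-0.64) fell and Rgs16 (0.98) rose, where 10.8% of all genes were called lower and 12.3% higher. In a fit of all 14 libraries the calls of Rgs10 and Rgs16 were lost (adjusted p = 0.289 and 0.0810). Of 24 effectors tested, the adenylyl cyclase Adcy3 rose in IL (1.1997 in Ctrl, 1.07 in cKO), and the adenylyl cyclase Adcy8 (-1.34 and -1.56) and Elmo1, part of a Rac activator (-0.71 and -0.89), fell in both genotypes. Of the effectors 1 rose and 2 fell in Ctrl, where 4.18% and 3.33% of all genes did, and 2 rose and 4 fell with mouse as a block (10.2% and 10.3%). In cKO, Pik3cg (-0.59), the catalytic subunit of the phosphoinositide 3-kinase that beta-gamma activates, its regulatory subunit Pik3r6 (-0.48) and the phospholipase Plcb2 (-0.42) also fell, which made 1 effector higher and 5 lower, where 12.3% and 10.8% of all genes were called. On leaving out 1 library at a time, calls were lost for Adcy8 in Ctrl (5 of 8), Elmo1 in Ctrl (1 of 8), Adcy3 in cKO (4 of 6), Pik3r6 (3 of 6) and Plcb2 (5 of 6), and Pik3r6 also with mouse as a block (adjusted p = 0.0638). In a fit of all 14 libraries Pik3r6 and Plcb2 lost their calls (adjusted p = 0.102 and 0.450), and with no filter on low values Adcy8 in Ctrl (0.0580), Pik3r6 (0.0503) and Plcb2 (0.106) did.

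Of 17 chaperones and exchange factors tested, 6 rose and 1 fell in IL in cKO and 0 were called by limma in Ctrl, where 2 had an unadjusted p under 0.05 and where 2 rose and 1 fell with mouse as a block. Of all genes, 12.3% were called higher and 10.8% lower in cKO and 4.18% and 3.33% in Ctrl (10.2% and 10.3% with the block). The 6 were Cct2, Cct3, Cct5, Cct6a, Cct8 and Tcp1, subunits of the chaperonin that folds beta subunits among other proteins, with log2 differences of 0.40 to 0.65, and the 1 was Gpsm1 (-0.65), which binds Gi alpha subunits. Each of the 7 lost its call without cKO IL of mouse 784 and also without cKO IL of mouse 791, and Cct3 and Gpsm1 each lost it on leaving out 5 of the 6 libraries. All 7 also lost it in a fit of all 14 libraries (adjusted p from 0.0509 for Tcp1 to 0.165 for Gpsm1), and Cct2, Cct3 and Gpsm1 with no filter on low values (0.0620, 0.0925 and 0.0758). None of the 7 receptor kinases and arrestins was called by limma between hemispheres in either genotype, with or without mouse as a block, and 0 in Ctrl and 2 in cKO had an unadjusted p under 0.05 without it.

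The genes whose pattern was most like that of Gnb4 were named by Pearson's r over the 14 libraries on the log2(CPM + 1) scale, among 13475 genes. The highest were Cap1 (r = 0.971), Hspb3 (0.970), Hist1h2al (0.968), Tpm3-rs7 (0.959) and Wdfy1 (0.954), and the lowest were Gm26740 (-0.973), Fcrls (-0.963), AI506816 (-0.959), Tpm3 (-0.954) and Fcrl1 (-0.952). None of the 10 overlapped between genotypes in either hemisphere, so that these values mainly restate the split between Ctrl and cKO that Gnb4 was chosen for. Within groups, after removal of group means, their r with Gnb4 was -0.51 to 0.48. Cap1, a regulator of actin, measured 76.8 to 112 CPM in Ctrl and 634 to 807 in cKO, and Fcrls, a microglial Fc receptor-like gene, 2853 to 3904 in Ctrl and 358 to 488 in cKO. The other G-protein subunits had r of -0.53 (Gnb5) to 0.46 (Gna13) with Gnb4 over all libraries, and both turned sign within groups (0.50 for Gnb5 and -0.63 for Gna13).

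The neighbourhood of Gnb4 was read for the same split. Within 1 Mb of its start lie 20 other genes in the table, of which 8 were tested in IL and 9 in CL. Between genotypes, 0 of them were called by limma, with log2 differences of -0.57 to 0.27 in IL and -0.63 to 0.21 in CL. Gm37640, an antisense gene at 32610861 to 32613513 on the plus strand, lies inside the span of Gnb4 and shares 0 exonic bases with it; it was not analysed here.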

How the data were processed

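CD11b+ cells from 14 hemispheres were sequenced as paired ends on a NovaSeq from Smart Seq v4 libraries. Per the labels and methods, the authors aligned reads with STAR to mm10 and processed them in Partek Flow 8.0; strand use is not given in the sources used here. The deposited table, although named raw counts, holds CPM, since each library sums to 1000000. The value of 1 read was recovered per library, giving 12.2 M to 41.6 M reads (median 34.2 M, where M is 1000000), but only 75.3% to 81.1% of values under 100 reads were whole multiples within 0.03, so no count test was run. The authors' own comparison tables (p-values, ratios, fold changes and group means) were not used.

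CPM were divided by unweighted trimmed-mean factors (30% of M-values and 5% of A-values trimmed; 0.882 to 1.12 over all libraries), and limma 3.58.1 in R 4.3.3 was fitted with a trend to log2(CPM + 1) of the libraries compared, with Benjamini-Hochberg adjustment over all genes tested. Genes entered with the CPM of 10 reads at median depth in at least the number of libraries of the smaller group, and 15 reads in total. Scripts were tested on simulated data. Gene models and sequences came from GENCODE M21 (GRCm38), which matched 33802 of 33939 IDs; coding sequences were aligned with Biopython 1.88.

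The members and lists were chosen with earlier results of these data known. Named were all 10 members, family and list genes called in any comparison (up to 6 of largest change per list), and the 5 genes with the highest and the 5 with the lowest r with Gnb4. The targeted gene and 1 receptor that this rule names are not reported here. Libraries of the same mouse deviated together: deviations from group means correlated at 0.18 to 0.60 in the 6 same-mouse pairs (median 0.41), against a median of -0.22 in 19 other pairs. Mouse numbers come from the labels; 784 and 788 were taken as different mice. Alternatives were upper-quartile or no scaling, pseudocounts of 0.1 and 0.5, other filters, all 14 libraries in 1 fit, mouse as a block, each library left out, other gene lengths and Spearman's rho; the length of the principal transcript was added after seeing the data.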

Additional observations from a re-analysis of the deposited data

Results flagged for a closer look

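Gnai3, a Gi alpha subunit, measured 138 CPM in the Ctrl CL library of mouse 3545, apart from the 117 to 120 CPM of the other 3 Ctrl CL libraries. Its gap to the nearest of them was 0.885 of the range of the group. Of 20 groups of 4 libraries examined it was the only one, and chance alone gives about 1 in 20. With 4 libraries in the group, the genotype difference of Gnai3 in CL kept its negative sign on leaving out each library in turn (log2 -0.19 to -0.06).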

How the results depend on the processing

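Of 810 recomputed values of the 10 subunits, 800 kept their side of the threshold, 4 lost a call and 6 gained one; 50 values of 15 uncalled differences changed sign, and no called difference did. Gnb4 stayed at log2 2.69 to 3.21 in IL and 3.10 to 3.93 in CL. For other named genes 125 of 991 values lost a call and 5 gained one. The cause of these changes was not tested.

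Genes called between genotypes in IL numbered 113, and 67 with no filter, 68 with at least 1 CPM in every library, 171 with all 14 libraries in 1 fit and 190 with mouse as a random replicate block. In CL they numbered 150, and 77, 72, 273 and 294 under the same alternatives. Called between hemispheres in Ctrl were 1231 genes, and 535 with no filter, 2049 with all 14 libraries and 3349 with mouse as a replicate block, while the subunits called went from 1 to 2 with all 14 libraries and to 3 with the block. In cKO they were 3870, and 2436 with no filter and 1554 with all 14 libraries. The interaction gave 0 genes and 4 with the random replicate block.

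Leaving out 1 library at a time gave 44 to 294 genes between genotypes in IL (1 subunit in each), with 294 without Ctrl IL of mouse 3546 and 44 without cKO IL of mouse 784, and 67 to 161 in CL (1 subunit), lowest without cKO CL of mouse 791. It gave 572 to 1662 genes and 0 to 2 subunits between hemispheres in Ctrl (lowest without Ctrl IL of mouse 3541), 1960 to 3630 genes and 2 to 4 subunits in cKO (lowest without cKO IL of mouse 784), and 0 to 1 gene and 0 subunits for the interaction. The arms left with 2 libraries borrow their spread from the fit.

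By Spearman's rho, 1 of the 10 genes most like Gnb4 was kept. The per-length share of Gnb4 moved from 0.0869% to 0.122% in Ctrl IL and from 0.883% to 1.24% in cKO IL with the longest and with the principal transcript (0.122% and 1.24%). Gnb4 in Ctrl rests on low counts, down to 18 reads in the Ctrl CL library of mouse 3551.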

Other observations

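The other alpha subunits covered the remaining classes of G protein. Gnas, which stimulates adenylyl cyclase, had the highest mean CPM of the listed subunits in each group, with 874 to 1160 CPM in Ctrl CL, 876 to 1117 in Ctrl IL, 842 to 1407 in cKO CL and 1015 to 1277 in cKO IL. Per kb of joined exons, Gna15 measured 177 CPM per kb in Ctrl CL, Gna12 154, Gnas 89.9, Gna13 35.0 and Gnaq 4.49. The order of Gna15 and Gnas turned with the length used, since per kb of the longest transcript Gnas measured 255 and Gna15 192. Gnb3, the beta subunit of cone photoreceptors, was low in every group, at 0.0481 to 0.736 CPM. None of these genes was called between genotypes, and Gnb3 was tested between genotypes in IL only.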
